A study of Mus musculus with 743 samples.

Results

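The cells described here are Schwann cells (SCs) with transcripts of proliferation genes, from mouse sciatic nerve on postnatal day 1 (P1). They were divided within each plate by the balance between mitotic and DNA replication transcripts. The mice carried a Cre transgene of the SC lineage, Rosa26 eYFP Tg/+ and beta-actin DsRed Tg/+ on C57BL/6J, so Cre marked that lineage with eYFP in every animal, and all cells came from this single genotype and age without treatment. Cells positive for eYFP were sorted 1 to a well and sequenced by Smart-seq2, a full-length protocol without molecular identifiers. Each of the 2 plates held cells of its own pool of 1 male and 1 female mouse, so the plate was the replicate (n = 2), and a result speaks for cells that kept eYFP through dissociation at 37°C. Of 743 wells, 621 had reads from at least 1500 genes, and the rule on the proliferation genes Mki67 and Top2a (a sum of at least 50 CPM, reads scaled to 1000000 per cell) kept 110 of these 621 cells. Their score was the mean log2(CPM + 1) of 6 mitotic genes (Ccnb1, Cdc20, Plk1, Cenpf, Aurka, Ccnb2) minus that of 6 replication genes (Mcm3, Mcm5, Mcm6, Pcna, Rrm2, Cdc6). Cells above their plate's median score are called high-score cells (26 on plate 1 and 28 on plate 2), and cells at or below it low-score cells (27 and 29). The other 511 cells are called the remaining cells and serve as a reference level only.

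A dividing cell first commits to the cycle through D-type cyclins and CDK4 or CDK6, which release E2F factors from the retinoblastoma proteins. E2F then drives the genes of the G1/S boundary and of S phase, whose products license and fire origins, make nucleotides and pack new DNA into chromatin. Genes of G2 and M phase are induced later, largely through the MuvB, B-MYB and FOXM1 proteins, and their products build the spindle, attach chromosomes to it and destroy the mitotic cyclins. In the newborn nerve SCs still divide while they sort axons, and those that reach a 1:1 relation with an axon leave the cycle and turn to myelination.

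The 4 sums of reads (each plate and score group) held between 22315205 and 24325621 reads, so depth differed little between them, and counting intervals would cover counting error only because reads are not molecules. Median reads per cell were 979496 and 739440 in high-score cells of plates 1 and 2 and 823249 and 701288 in low-score cells. High-score cells had reads from more genes, with medians of 3582.5 and 3687.5 genes per cell against 3425 and 3320. With every cell thinned to 50000 reads, which left out 1 high-score cell, the medians were 3048 and 3109 against 2765 and 2799. The remaining cells had 2468.5 and 2473 genes at that depth. The part of this difference in the results below was not tested.

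The cells carried SC transcripts in both groups. Reads of Sox10, S100b or Erbb3, a transcription factor, a calcium-binding protein and the neuregulin receptor of the SC lineage, were found in 25 of 26 and 27 of 28 high-score cells and in all 27 and 29 low-score cells. Most markers of other nerve cells were rare in the 110 cells. Of the 16 listed, Kdr, Cdh5 and Pecam1 of endothelial cells, Pdgfra and Lum of fibroblasts, Ptprc and Tyrobp of leukocytes, and Acta2, Pdgfrb and Rgs5 of mural cells had no read. Cldn5 and Emcn of endothelial cells and Dcn of fibroblasts had reads in 1 cell each. Csf1r and Cd68 of leukocytes stayed at or below 6.90 CPM in every sum, with reads in 11 and 3 cells. Cspg4 of mural cells, which SC lineage cells can also express, lay between 18.7 and 55.6 CPM, with reads in 20 cells.

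Both groups were chosen by the score genes, so those 12 genes are described without a test. In high-score cells the score ran from 5.30 to 9.90 on plate 1 and from 3.76 to 10.7 on plate 2, and in low-score cells from −7.28 to 5.21 and from −7.63 to 3.51. The cells on either side of the split were close to it: the highest low-score cell and the lowest high-score cell lay at 5.21 and 5.30 on plate 1 and at 3.51 and 3.76 on plate 2. The high-score cells had reads from a median of 6 of the 6 mitotic genes and 1 of the 6 replication genes on each plate. Detection still varied among them, with reads of Plk1 in 38 and of Aurka in 36 of 54 cells. Of the 56 low-score cells, 27 had a score below 0, where replication genes outweighed mitotic genes, and 29 had a score of 0 or more.

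Counted by detection, 26 and 25 of the high-score cells had reads from at least 4 mitotic but fewer than 4 replication genes. Of the low-score cells on plate 1, 8 had at least 4 replication genes only, 9 had at least 4 mitotic genes only, 1 had at least 4 of each and 9 had neither. On plate 2 those numbers were 6, 6, 6 and 11. The label of replicating cells therefore covers the low-score group in part, and the groups are named by their score here. Over the 110 cells the mitotic and replication means of the score were inversely related within plates (Pearson's r = −0.52 over 53 cells and −0.22 over 57 cells, a description over cells that share their plate's mice). The plot of the 12 score genes shows the high-score cells above the plate's median score and the low-score cells as a spread that reaches both axes.

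**Figure D1:**
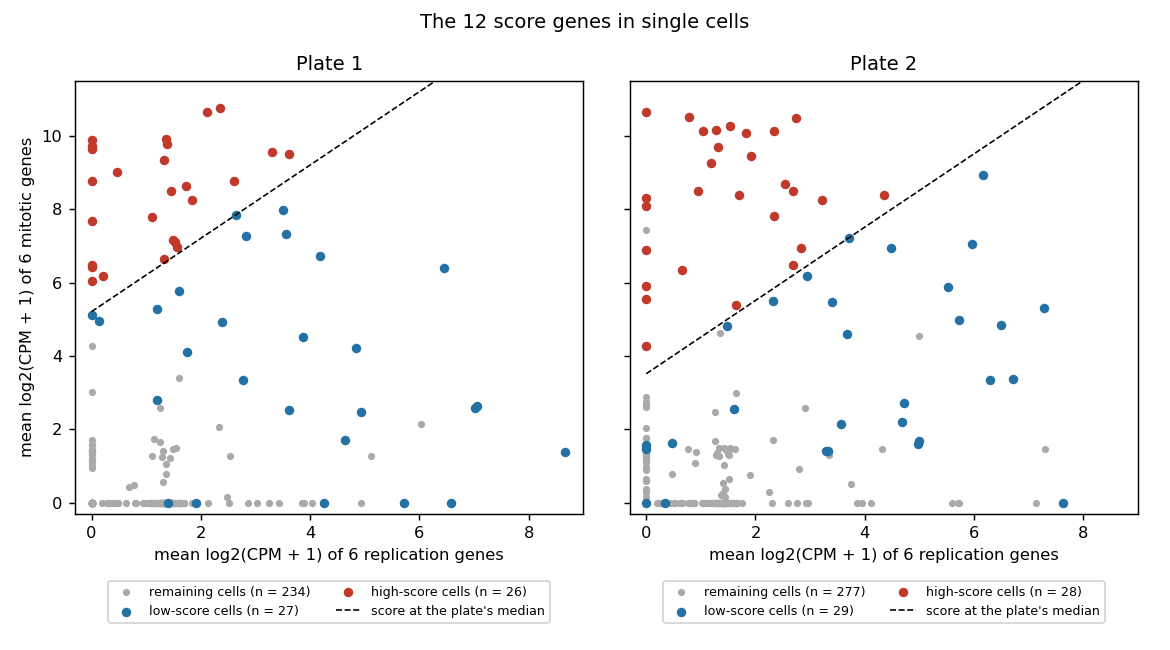
Mean log2(CPM + 1) of the 6 replication genes (x axis) and of the 6 mitotic genes (y axis) in each cell, by plate, with 1 point a cell. High-score cells (red) lie above the dashed line at the plate's median score. Low-score cells (blue) lie on or below it and reach up to 8.67 on the x axis and 8.94 on the y axis. Most of the 511 remaining cells (grey) lie near the x axis.

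Among the mitotic score genes, Cdc20, which activates the anaphase-promoting complex, had 1435 and 1840 CPM in high-score cells and 412 and 400 CPM in low-score cells of plates 1 and 2. Aurka, the kinase of the spindle poles, had 278 and 289 CPM against 8.47 and 39.8 CPM. Ccnb2, a B-type cyclin, had 1416 and 1739 CPM against 771 and 266 CPM. Plk1, a mitotic kinase, Ccnb1, the main B-type cyclin, and Cenpf, a kinetochore protein, were higher in high-score cells on both plates as well, as the rule makes likely. Among the replication score genes, Pcna, the sliding clamp of DNA polymerases, had 182 and 193 CPM in high-score cells against 983 and 967 CPM in low-score cells. The high-score level of Pcna was close to that of the remaining cells (175 CPM on each plate). Mcm3, a subunit of the replicative helicase, was found in 2 of 54 high-score cells and 28 of 56 low-score cells. Cdc6, which loads that helicase, had 2 reads in all high-score cells and 1418 in all low-score cells, of which 1 cell on each plate held 86.2% and 85.8%, and was found in 11 of 56 low-score cells. Rrm2, the small subunit of ribonucleotide reductase, had 43.2 and 42.9 CPM against 108 and 245 CPM, and Mcm5 and Mcm6, helicase subunits too, were lower in high-score cells on both plates. Of the selecting genes, Mki67 had 1346 and 633 CPM against 806 and 416 CPM, and Top2a, which untangles DNA, had 981 and 645 CPM against 914 and 802 CPM, so the groups overlapped for both, although Mki67 was higher in high-score cells within each plate.

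Outside the 14 genes of the rule, 11064 genes had enough reads for the test. The main test was edgeR's quasi-likelihood test on the 4 sums with Benjamini-Hochberg adjustment. It called 0 genes at an adjusted p under 0.05 (0% of those tested), with 592 genes at an unadjusted p under 0.05 and a smallest adjusted p of 0.837. DESeq2 on the same sums called 116 genes higher in high-score cells (1.05%) and 112 lower (1.01%). With 2 plates an exact permutation of 2 sums against 2 cannot give a two-sided p below 0.333, and the cells of the 2 groups of a plate came from the same mice.

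Sums of reads can be set by a few cells, so the groups were also compared by the mean of log2(CPM + 1) over the cells of each plate and group (called the mean log level below), a measure added after the data were seen. Limma on these 4 values per gene called 42 genes higher in high-score cells (0.38%) and 8 lower (0.0723%), 50 in all, with 913 genes at an unadjusted p under 0.05. Of the 42, 23 belonged to the mitosis lists described below, and of the 8, 5 belonged to the replication lists. Because edgeR called none of them, these are given as results of that added fit and not of the main test.

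2 descriptive counts were used beside the tests. A gene was counted as at least 2-fold apart when the ratio of CPM + 1 passed 2 in the same direction on both plates and the higher group averaged at least 20 CPM. Of the tested genes 439 (3.97%) were higher in this sense in high-score cells and 520 (4.7%) lower, while 608 passed the same fold in opposite directions on the 2 plates. By the mean log level, 327 genes (2.96%) were at least 1 log2 unit higher on both plates and 135 (1.22%) lower, and 165 passed 1 unit in opposite directions. These shares are the background for the counts of list members.

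Genes of DNA replication outside the score were lower in high-score cells as lists. Of 88 genes in 6 lists (origin licensing and helicase, polymerases and fork factors, nucleotide supply, replication-coupled chromatin, G1/S cyclins and E2F, fork repair and checkpoint), 87 had enough reads for the test. By sums, 48 were at least 2-fold lower on both plates, against 4.7% of all genes, and 1 was higher. By the mean log level 39 were at least 1 unit lower, against 1.22% of all genes and none was higher. The median mean log difference of the 87 was −1.16 on plate 1 and −1.26 on plate 2, beside 0.03 and 0.03 over all genes. EdgeR called 0 of the 87, DESeq2 called 19 lower and limma 5 lower.

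Genes of the entry into S phase come first. Ccne1, the E-type cyclin that starts S phase with CDK2, had 1.11 and 16.4 CPM in high-score cells of plates 1 and 2 and 90.0 and 187 CPM in low-score cells. All high-score values lay below all low-score values, and the mean log level differed by −2.74 ± 0.57 (SE, adjusted p = 0.04 by limma, 0.902 by edgeR). E2f1, an activating E2F factor, had 0.699 and 0 CPM against 47.1 and 26.5 CPM, with reads in 1 of 54 high-score and 10 of 56 low-score cells. E2f7, an E2F repressor that E2F1 induces, had 6.87 and 7.16 CPM against 61.5 and 111 CPM. Of the 10 genes of the G1/S list 8 were at least 2-fold lower on both plates by sums and 5 by the mean log level.

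Licensing factors were lower as a list. Cdt1, which loads the MCM helicase on origins before S phase, had no read in any of 54 high-score cells (an upper limit of 5.56% for cells with a read, which does not bound the cells that express it). It had 61.8 and 32.8 CPM in low-score cells, at least 746-fold higher when set against a floor of 3 reads over all high-score cells, although only 16 of 56 low-score cells held its reads and 1 cell gave 44.7% and 55.8% of them on plates 1 and 2. Mcm2, a helicase subunit, had 7.73 and 8.26 CPM against 51.7 and 115 CPM, and Gins2, a subunit of the active helicase, 62.1 and 19.5 CPM against 271 and 256 CPM. Of the 20 members of the list 13 were at least 2-fold lower by sums and 10 at least 1 unit lower by the mean log level. The exception was Timeless, a fork protection protein, with 36.6 and 31.3 CPM against 10.7 and 11 CPM, but it had reads in 6 cells of each group and its mean log level differed by 0.19 (adjusted p = 0.951 by limma). Among cells of at least 2500 genes the fold change of Timeless by sums turned to −0.43 on the log2 scale. Tipin, the partner of Timeless, and Gmnn (geminin), an inhibitor of Cdt1, had the most reads of the list. Tipin had 397 and 185 CPM against 570 and 485 CPM. Gmnn had 215 and 109 CPM against 141 and 175 CPM, with overlapping groups and reads in 27 of 54 and 26 of 56 cells.

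Fork proteins followed. Rpa2, a subunit of the single-strand binding protein RPA, had 7.11 and 29.8 CPM in high-score cells and 197 and 207 CPM in low-score cells, and its mean log level differed by −3.25 ± 0.62 (adjusted p = 0.0243 by limma, 0.865 by edgeR). Lig1, the ligase that joins Okazaki fragments, had 97.4 and 32.3 CPM against 215 and 242 CPM (mean log difference −3.23, adjusted p = 0.04 by limma), with reads in 13 of 54 and 36 of 56 cells. Of the 22 polymerase and fork genes 14 were at least 2-fold lower by sums and none was higher. Rfc2 and Rfc3, subunits of the loader of Pcna, had the most reads of the list. Rfc3 had 124 and 75.4 CPM against 298 and 294 CPM, whereas Rfc2 had 134 and 201 CPM against 352 and 191 CPM and its groups overlapped.

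Nucleotide supply was divided between genes. Tyms (thymidylate synthase) had 76.9 and 64.0 CPM against 468 and 204 CPM, and its high-score values lay below both low-score values. Other enzymes of the same supply differed less. Tk1 (thymidine kinase) had 195 and 137 CPM against 294 and 202 CPM, with reads in 28 of 54 and 32 of 56 cells, and Dtymk (thymidylate kinase) 415 and 265 CPM against 386 and 377 CPM with overlapping groups. Of the 12 members 5 were at least 2-fold lower by sums and 6 at least 1 unit lower by the mean log level.

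In replication-coupled chromatin the largest difference of the mean log level was in Slbp, the protein that binds the stem-loop of replication-dependent histone mRNAs and is normally destroyed at the end of S phase. Slbp had 25.6 and 34.7 CPM in high-score cells of plates 1 and 2, 338 and 309 CPM in low-score cells and 40.7 and 56.3 CPM in the remaining cells. By sums the high-score level was below that of the remaining cells, while reads of Slbp were found in 30.8% and 32.1% of high-score and 28.6% and 26.4% of remaining cells. The mean log level differed by −3.99 ± 0.65 (adjusted p = 0.00929 by limma, 0.837 by edgeR), and reads of Slbp were found in 17 of 54 against 39 of 56 cells. Thinned to 50000 reads per cell, the shares were 20% and 25% of high-score cells against 66.7% and 69.0% of low-score cells. Slbp lies at chr5:33634952-33652574 (minus strand, GRCm38), and exons of the antisense gene Gm10459 overlap it. Gm10459 was lower as well (mean log difference −2.72), and without strand in the counting reads of the pair cannot be told apart. Chaf1b, a subunit of the chromatin assembly factor CAF-1, had 12.5 and 0 CPM against 140 and 83.9 CPM (mean log difference −2.46, adjusted p = 0.0366 by limma), and Dnmt1, the maintenance DNA methyltransferase, 48.8 and 21.4 CPM against 176 and 195 CPM. Asf1b, a histone chaperone, and Cbx5, a heterochromatin protein, had the most reads of the list. Asf1b had 271 and 267 CPM against 210 and 499 CPM and Cbx5 280 and 219 CPM against 440 and 173 CPM, and both overlapped between groups.

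Fork repair and checkpoint genes had the smallest share of members past either limit among the 6 lists. Their median log2 ratios by sums, −1.23 and −1.92 on plates 1 and 2, were however lower than those of nucleotide supply, −1.05 and −1.06. Of 13 tested, 4 were at least 2-fold lower by sums and 1 at least 1 unit lower by the mean log level. That gene was Atad2, a chromatin ATPase induced with E2F targets, with 51.0 and 11.9 CPM against 335 and 131 CPM. Usp1, a deubiquitinase of PCNA, had 61.6 and 113 CPM against 112 and 119 CPM.

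Mitotic genes outside the score were higher in high-score cells as lists. Of 84 genes in 7 lists (mitotic cyclin-CDK control, kinetochore and checkpoint, chromosomal passenger complex, spindle motors and microtubule proteins, cytokinesis, condensin and cohesion, APC/C and mitotic ubiquitin), all 84 had enough reads. By sums 23 were at least 2-fold higher on both plates, against 3.97% of all genes, and 1 was lower. By the mean log level 53 were at least 1 unit higher, against 2.96% of all genes, and 1 was lower. The count thus depended on the measure more than for the replication lists. The median mean log difference was 1.80 on plate 1 and 1.97 on plate 2, beside 0.03 and 0.03 over all genes. EdgeR called 0 of the 84, DESeq2 called 17 higher and limma 23 higher. In single cells the mean of the 84 genes had a median of 5.73 and 5.47 in high-score cells and 4.10 and 3.34 in low-score cells. The median of the remaining cells, 0.538 and 0.540, lay below both. Some low-score cells lay near that level, with minima of 0.618 and 0.289 on plates 1 and 2.

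**Figure D2:**
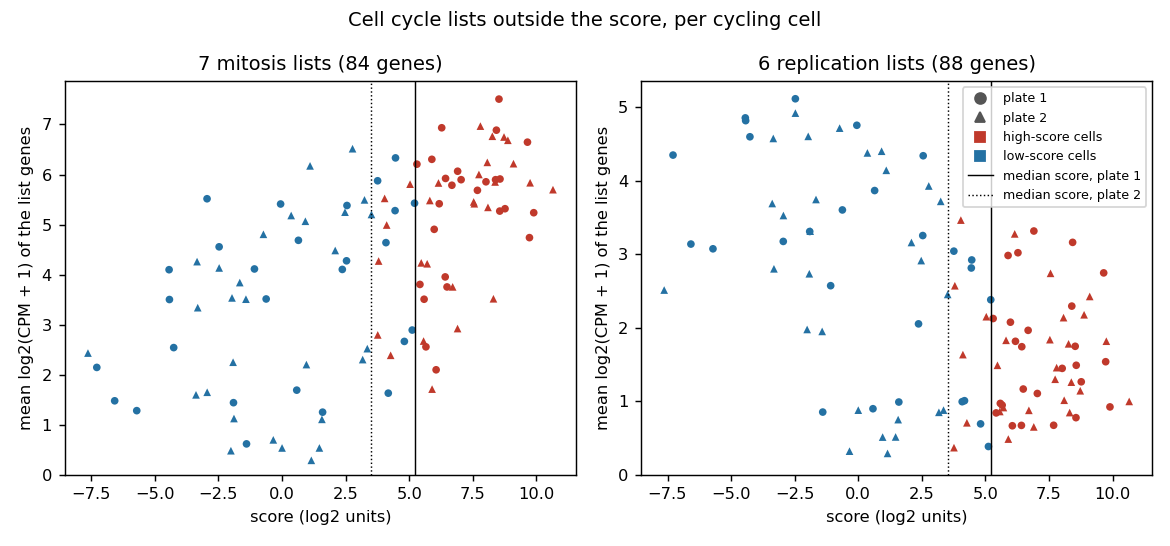
Each of the 110 selected cells is placed by its score in log2 units (x axis). The y axis gives the mean log2(CPM + 1) of the 84 genes of the mitosis lists (left) or the 88 genes of the replication lists (right). Circles mark plate 1, triangles plate 2 and lines each plate's median score. Low-score cells (blue) span nearly the whole range on both panels, and high-score cells (red) stay below 3.47 for the replication lists.

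Of the 10 genes of mitotic cyclin-CDK control, 3 were at least 2-fold higher by sums and 6 at least 1 unit higher by the mean log level, while 4 differed in opposite directions between plates by sums. Cdk1, the kinase of mitosis, had 1662 and 1482 CPM in high-score cells against 684 and 808 CPM in low-score cells, and its mean log level differed by 2.29 ± 0.46 (adjusted p = 0.0337 by limma, 0.865 by edgeR). Ccna2, the A-type cyclin of S phase and G2, had 351 and 663 CPM against 124 and 101 CPM (mean log difference 3.10, adjusted p = 0.0215 by limma). By these counts Ccna2 sided with the mitotic genes and not with the S-phase genes. Its exons overlap those of Exosc9 on the opposite strand, and reads of this pair cannot be told apart without strand. Reads of Ccna2 were also found in 23.5% of the remaining cells. Cks2, a small CDK subunit, had 597 and 615 CPM against 219 and 204 CPM (mean log difference 3.99, adjusted p = 0.00175 by limma). Its relative Cks1b had 1483 and 1252 CPM against 1036 and 663 CPM (2.46, adjusted p = 0.00751 by limma). Cdc25c, the phosphatase that activates CDK1, was found mostly in high-score cells, with 83.9 and 114 CPM against 6.35 and 3.67 CPM and reads in 31 of 54 and 8 of 56 cells.

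At the kinetochore, Cenpa, the histone H3 variant that marks centromeres, gave the largest mean log difference of the tested genes outside the rule, 5.04 ± 0.52 (adjusted p = 0.000258 by limma, 0.837 by edgeR). It had 1362 and 1502 CPM in high-score cells, 464 and 316 CPM in low-score cells and 36.7 and 31.4 CPM in the remaining cells, and it lies at chr5:30666777-30674830 (plus strand, GRCm38). All 54 high-score cells had a read of Cenpa, against 32 of 56 low-score cells. Cenpe, a kinetochore motor, had 869 and 690 CPM against 438 and 223 CPM (mean log difference 4.31, adjusted p = 0.00175 by limma), and Sgo2a, which protects centromeric cohesion, 229 and 154 CPM against 31.2 and 29.6 CPM. Bub3, a checkpoint protein and the most read gene of the list, differed less, with 1024 and 1220 CPM against 831 and 675 CPM. Of the 22 members 15 were at least 1 unit higher by the mean log level.

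The chromosomal passenger complex, which corrects attachment errors, had all 4 members at least 1 unit higher by the mean log level, but none 2-fold higher on both plates by sums. Birc5 (survivin) had 1678 and 1654 CPM against 1146 and 790 CPM, and its mean log level differed by 3.30 ± 0.44 (adjusted p = 0.00175 by limma). Cdca8 (borealin) had 672 and 755 CPM against 373 and 306 CPM, and Aurkb, the kinase of the complex, 289 and 320 CPM against 207 and 128 CPM. Birc5 shows how the measures part: all 54 high-score and 42 of 56 low-score cells had reads, and 1 low-score cell gave 31.6% of its group's reads on plate 2.

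Among the mitosis lists, spindle genes had the most members at least 2-fold higher by sums, 8 of 20 (40%), and 14 of 20 were at least 1 unit higher by the mean log level. By share the APC/C and mitotic ubiquitin list stood above it, with 4 of 9 (44.4%) at least 2-fold higher by sums. Kif20b, a kinesin of the midzone, had 220 and 179 CPM against 45.5 and 42.1 CPM. Kif22, a chromosome-arm kinesin, had 287 and 624 CPM against 74.2 and 108 CPM. Kif18a, which damps chromosome oscillations, had 48.9 and 96.6 CPM against 1.21 and 0 CPM, with reads in 23 of 54 and 3 of 56 cells. Troap, a spindle-associated protein, had 59.3 and 142 CPM against 1.51 and 7.89 CPM, and the high-score values of these 4 genes lay above all low-score values. Aspm and Hmmr, both at spindle poles, were set by few cells among the low-score cells. Aspm had 335 and 266 CPM against 263 and 27.1 CPM with reads in 43 of 54 and 15 of 56 cells, and Hmmr 208 and 213 CPM against 114 and 24.7 CPM with reads in 44 and 20 cells. Stmn1 (stathmin), which destabilises microtubules, had the most reads of the list and overlapping groups across plates, with 5179 and 3627 CPM against 4127 and 2796 CPM, but was higher in high-score cells within each plate (log2 ratios of 0.33 and 0.38). Tpx2, an activator of Aurora A, had 391 and 350 CPM against 312 and 142 CPM (mean log difference 2.72, adjusted p = 0.0485 by limma).

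Exit from mitosis is run by the anaphase-promoting complex (APC/C). Ube2c, its ubiquitin-conjugating enzyme, had 1669 and 1655 CPM in high-score cells against 722 and 256 CPM in low-score cells (mean log difference 4.36 ± 0.64, adjusted p = 0.00486 by limma, 0.902 by edgeR). Fzr1 (CDH1), the activator of the complex in late mitosis and G1, had 374 and 181 CPM against 37.8 and 31.5 CPM, and its low-score level was near the 29.1 and 27.0 CPM of the remaining cells. Cdc23, a core subunit, had 332 and 365 CPM against 69.2 and 84.9 CPM, with 61.5 and 45.5 CPM in the remaining cells. Reads of Cdc23 were found in 48.2% of low-score and 24.9% of remaining cells. The exons of Cdc23 overlap on the opposite strand with those of Kif20a, a cytokinesis kinesin with 321 and 356 CPM against 130 and 49.9 CPM, and reads of this pair cannot be told apart without strand. Of the 9 cytokinesis genes 7 were at least 1 unit higher by the mean log level. Prc1 and Racgap1, midzone proteins with the most reads of that list, overlapped between groups by sums, with 464 and 210 CPM against 246 and 211 CPM and with 326 and 288 CPM against 312 and 150 CPM, although Racgap1 was higher in high-score cells within each plate.

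Condensin and cohesion genes were the mitotic list without a common direction, with 2 of 10 higher (Smc4 and Ncaph2) and 1 lower (Ncapg2) by the mean log level. Smc4 had 989 and 938 CPM against 649 and 414 CPM, and its condensin partner Smc2 795 and 367 CPM against 659 and 406 CPM with overlapping groups. The plot of differences by plate shows the mitosis lists in the upper right and the replication lists in the lower left of the cloud of all genes.

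**Figure D3:**
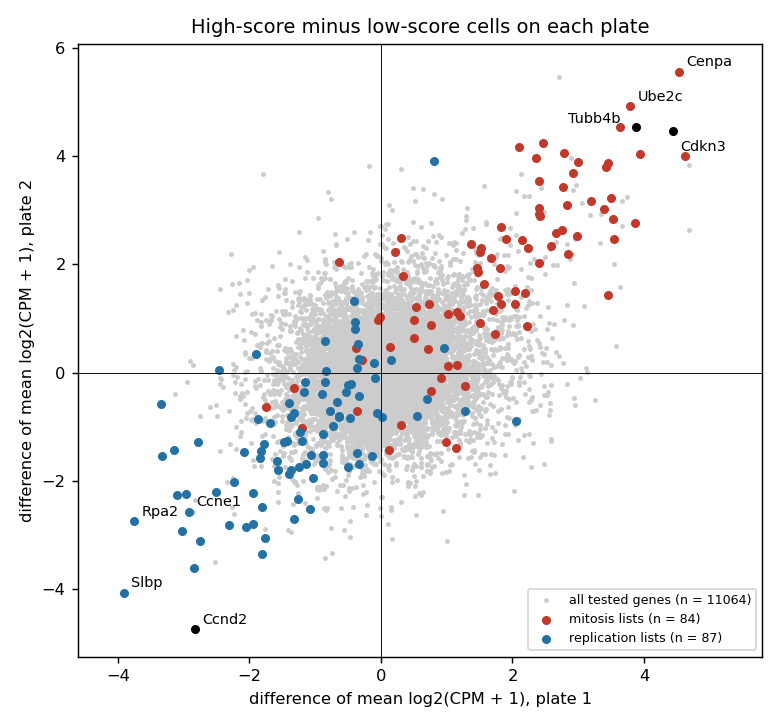
Difference of the mean log level (high-score minus low-score cells, log2 units) of each tested gene on plate 1 (x axis) and plate 2 (y axis), with all 11064 genes in grey, mitosis lists in red, replication lists in blue and 8 genes labelled. Cenpa lies at 4.53 and 5.55 and Slbp at −3.91 and −4.06, and most grey points lie around 0 on both axes.

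Among regulators of G1, Ccnd2 (cyclin D2) showed a graded order. It had 28.0 and 17.7 CPM in high-score cells, 232 and 391 CPM in low-score cells and 759 and 565 CPM in the remaining cells, so no 2 of the 3 groups overlapped. Reads of Ccnd2 were found in 12 of 54, 38 of 56 and 411 of 511 cells, and its mean log level differed by −3.78 ± 0.68 between the score groups (adjusted p = 0.0184 by limma, 0.837 by edgeR). Ccnd2 lies at chr6:127125162-127152193 (minus strand, GRCm38) and overlaps the antisense genes 9330179D12Rik and Gm43126. Ccnd1 (cyclin D1) had the same order with a smaller spread, 569 and 346 CPM, 708 and 880 CPM and 1097 and 1030 CPM, and its partner kinase Cdk6 had 1325 and 1330 CPM against 1257 and 1759 CPM with overlapping groups. Cdkn3, a phosphatase that acts on CDKs, went the other way with 511 and 446 CPM against 213 and 54.2 CPM (mean log difference 4.45, adjusted p = 0.00639 by limma). Cdkn2c (p18), an inhibitor of CDK4 and CDK6, had 129 and 183 CPM against 51.4 and 58.9 CPM.

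Of the cell cycle transcription factors, Mybl2 (B-MYB) had 0 and 3.69 CPM in high-score cells against 59.4 and 36.9 CPM, and was found in 1 of 54 and 11 of 56 cells. Its own transcript was thus on the side of the S-phase genes. Foxm1 had 144 and 136 CPM against 137 and 60.5 CPM, and Lin37, a MuvB subunit, 116 and 24 CPM against 65.9 and 78.6 CPM with overlapping groups. In the lamin and envelope list, Lmnb1 (lamin B1) had 77.2 and 68.2 CPM against 28.1 and 27.3 CPM and Lbr (the lamin B receptor) 94.4 and 116 CPM against 25.7 and 42.0 CPM. Lmna had 745 and 936 CPM against 582 and 693 CPM, and Banf1, which bridges chromatin and the envelope, 501 and 365 CPM against 481 and 496 CPM with overlapping groups.

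**Figure D4:**
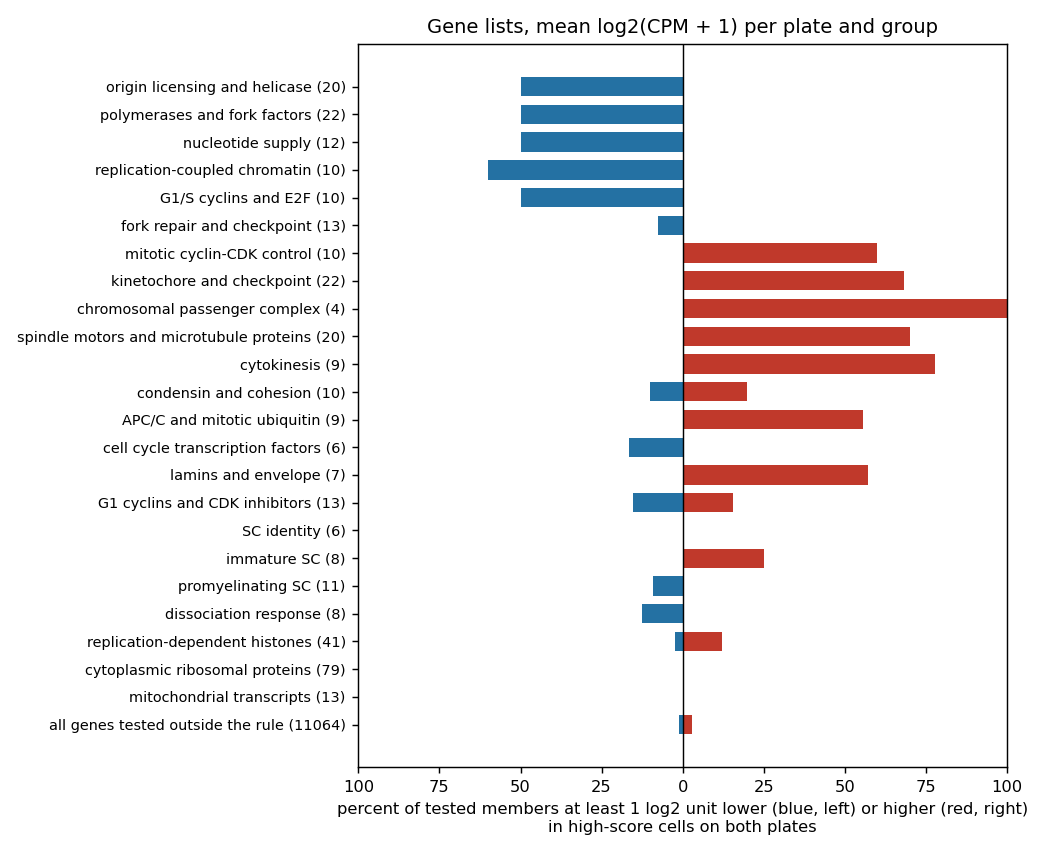
Percent of the tested members of each list (number in brackets) whose mean log level was at least 1 log2 unit lower (blue, to the left) or higher (red, to the right) in high-score cells on both plates. The bottom bar gives all 11064 genes (1.22% lower and 2.96% higher), and all 4 chromosomal passenger genes lie on the right.

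Genes in no list made up 17 of the 42 genes that limma called higher and 2 of the 8 it called lower, and those named next were chosen after their values were seen. Tubb4b, a beta-tubulin, had 1101 and 1213 CPM in high-score cells against 356 and 402 CPM (mean log difference 4.21 ± 0.47, adjusted p = 0.000401 by limma, 0.837 by edgeR), with 135 and 130 CPM in the remaining cells. Its exons overlap those of Fam166a on the opposite strand at chr2:25222160-25224702, and Fam166a was called too. Knstrn (kinastrin), a spindle protein, had 706 and 539 CPM against 385 and 119 CPM, and Psrc1, which binds spindle microtubules, 298 and 238 CPM against 38.7 and 66.3 CPM. Kpna2, an importin alpha that carries spindle factors, had 1093 and 1039 CPM against 342 and 204 CPM. Cdca3, a trigger of WEE1 destruction, had 1043 and 885 CPM against 398 and 223 CPM.

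Some of the others have roles outside the spindle. H2afx, the histone variant phosphorylated at DNA breaks, had 374 and 365 CPM against 149 and 133 CPM (mean log difference 3.09, adjusted p = 0.0168 by limma). Arl6ip1, a shaper of the endoplasmic reticulum, had 1065 and 1444 CPM against 474 and 240 CPM, with 174 and 115 CPM in the remaining cells. Pif1, a DNA helicase, had 54.7 and 109 CPM against 3.54 and 0.314 CPM and was found in 28 of 54 and 2 of 56 cells. Of the lower genes Zfp367, a zinc-finger factor, had 22.2 and 39.2 CPM against 83.4 and 275 CPM (mean log difference −3.01, adjusted p = 0.0477 by limma).

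**Figure D5:**
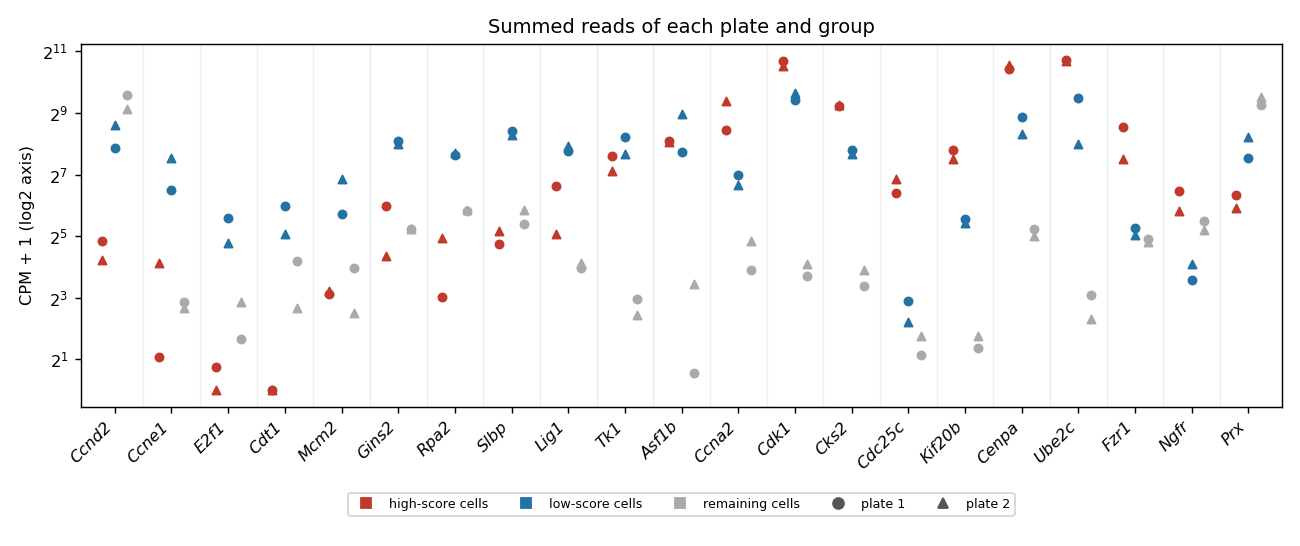
CPM + 1 (y axis, log2 scale) of 21 genes in the summed reads of high-score (red), low-score (blue) and remaining cells (grey), with circles for plate 1 and triangles for plate 2. Ccnd2 stands highest in the remaining cells and lowest in high-score cells, and Cenpa stands at 1362 and 1502 CPM in high-score cells above 464 and 316 CPM in low-score cells.

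Promoter letters were compared between the lists because G2/M genes are known for the cell cycle homology region (CHR, TTTGAA) with CCAAT boxes upstream, and G1/S genes for E2F sites. Windows of 250 bases before to 50 bases after a gene's start came from RefSeq (GRCm38.p6), 1 window a gene, and both strands were searched. Of 8414 tested genes with a window, 11.8% held TTTGAA, 39.3% CCAAT and 4.52% an E2F word (TTTCCCGC, TTTGGCGC, TTTCGCGC or TTTGCCGC). Over all 16582 genes with a window these shares were 15.6%, 38.7% and 2.94%. Of the 67 mitosis genes with a window 62.7% held TTTGAA, 65.7% CCAAT and 8.96% an E2F word. Of the 69 replication genes the shares were 20.3%, 60.9% and 27.5%. TTTAAA, the other CHR form, was in 13.4% of mitosis, 5.8% of replication and 9.02% of tested genes.

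Outside the lists the shares were nearer to those of all tested genes. Among genes in no list that were at least 2-fold higher by sums, 326 had a window and 16.6% of these held TTTGAA, and among those at least 2-fold lower 360 had a window and 4.44% held an E2F word. Of the 42 genes that limma called higher 28 had a window and 64.3% of these held TTTGAA, but most of the 28 are list members, and of the 17 genes in no list 10 had a window and 5 of these held it. A match is a match of letters and not a bound site.

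6 promoters are shown as examples that hold such letters, 3 of genes at least 2-fold higher and 3 of genes at least 2-fold lower in high-score cells by sums. They do not stand for all promoters of these groups. Of 19 mitosis genes at least 2-fold higher with a window, 57.9% held TTTGAA. Of 39 replication genes at least 2-fold lower with a window, 30.8% held an E2F word. Each is the 110 bases just before the RefSeq start, 5′ to 3′ on the gene's strand, with CHR letters (TTTGAA, or TTCAAA where it runs on the other strand), CCAAT (or ATTGG) and E2F words in capitals.
Ube2c (chr2:164769819-164769928, plus strand): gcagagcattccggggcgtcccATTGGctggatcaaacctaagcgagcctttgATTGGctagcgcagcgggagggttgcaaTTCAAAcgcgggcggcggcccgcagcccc
Kif22 (chr7:127042421-127042530, minus strand): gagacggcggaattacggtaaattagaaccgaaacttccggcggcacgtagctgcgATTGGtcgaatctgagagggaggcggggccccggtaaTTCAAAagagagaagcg
Kif11 (chr19:37376272-37376381, plus strand): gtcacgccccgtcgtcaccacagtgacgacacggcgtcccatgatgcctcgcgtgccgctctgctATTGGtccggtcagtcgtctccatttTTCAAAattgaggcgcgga
Cdc25a (chr9:109875469-109875578, plus strand): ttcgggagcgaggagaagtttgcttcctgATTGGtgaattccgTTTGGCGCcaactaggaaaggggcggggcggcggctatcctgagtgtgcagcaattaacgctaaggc
Gins3 (chr8:95633449-95633558, plus strand): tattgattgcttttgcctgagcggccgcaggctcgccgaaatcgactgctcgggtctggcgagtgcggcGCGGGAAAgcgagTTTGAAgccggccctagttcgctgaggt
Rfc3 (chr5:151651209-151651318, minus strand): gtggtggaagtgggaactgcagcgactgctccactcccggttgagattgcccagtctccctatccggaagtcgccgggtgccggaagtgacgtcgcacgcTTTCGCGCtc
In Ube2c, Kif22 and Kif11 the CHR letters began 29, 17 and 19 bases before the start, and the nearest CCAAT letters in the same orientation lay 57, 54 and 45 bases before it. In Cdc25a, a phosphatase of the G1/S list, the E2F word began 67 bases before the start. Gins3, a helicase subunit, held an E2F word and CHR letters 41 and 28 bases before it, and Rfc3 an E2F word at 10 bases.

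SC state genes were compared by list. No member of the SC identity list was 2-fold or 1 log2 unit apart on both plates. Erbb3 had 354 and 185 CPM against 308 and 285 CPM, with overlapping groups. Of 8 genes of immature SCs, 2 were at least 2-fold higher by sums (Ngfr and Gap43), against 3.97% of all genes, and 2 at least 1 unit higher by the mean log level (Ngfr and Chl1), against 2.96%. The per-cell mean of the list had medians of 3.73 and 3.39 in high-score cells, 2.84 and 2.93 in low-score cells and 2.04 and 2.07 in the remaining cells (log2 units), with overlapping ranges. Ngfr (the p75 neurotrophin receptor) had 88.3 and 55.1 CPM in high-score cells against 10.9 and 15.9 CPM, with 43.7 and 36.1 CPM in the remaining cells. Reads of Ngfr were however found in 29 of 54 and 28 of 56 cells, so the shares of cells were close, and the adjusted p was 0.902 by edgeR and 0.622 by limma. Gap43 rested on single cells, which gave 98.9% and 87.3% of its high-score reads. Ncam1 and Chl1, adhesion molecules of immature SCs with the most reads of the list, had 803 and 546 CPM against 408 and 590 CPM and 273 and 202 CPM against 211 and 76.5 CPM.

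Myelin genes were compared with the remaining cells as well. Prx (periaxin), a scaffold of the promyelinating stage, had 79.7 and 59.9 CPM in high-score cells, 185 and 299 CPM in low-score cells and 606 and 730 CPM in the remaining cells, the same graded order as Ccnd2 (adjusted p = 0.865 by edgeR and 0.528 by limma between the score groups). Pmp2, a fatty-acid carrier of myelin in no list, had 2.30 and 0.352 CPM, 57.6 and 26.8 CPM and 600.1 and 559 CPM, and was found in 2 of 54, 9 of 56 and 143 of 511 cells. Pmp22, a myelin membrane protein, had 1691 and 1802 CPM against 1590 and 1952 CPM and 4366 and 4772 CPM in the remaining cells. Mal, a raft protein of myelin, had 1728 and 1999.7 CPM against 1950.5 and 1481 CPM, with overlapping score groups below the 2040.4 and 2019 CPM of the remaining cells. Per cell, the mean of the 14 promyelinating genes had medians of 3.66 and 3.81 in high-score cells, 3.99 and 4.40 in low-score cells and 4.77 and 4.96 in the remaining cells (log2 units), with ranges that overlapped widely. Of the 11 members tested 1 (9.09%) was at least 2-fold lower by sums, against 4.7% of all genes, and no member was higher.

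Housekeeping lists held no gene past the fold used here. Of 79 ribosomal protein genes and 13 mitochondrial transcripts none was 2-fold or 1 log2 unit apart on both plates. By sums, however, 45 of the 79 ribosomal protein genes were lower in high-score cells on both plates and 1 was higher, with median log2 ratios of −0.11 and −0.28, beside 3020 lower and 2755 higher of all tested genes. Rplp0 had 3649 and 3790 CPM against 3692 and 3767 CPM, Rpl4 1727 and 1775 CPM against 1615 and 1920 CPM, mt-Cytb 15243 and 15467 CPM against 19022 and 13821 CPM and mt-Co1 6209 and 6706 CPM against 6707 and 7412 CPM, and the groups overlapped except for mt-Co1, where they nearly met. Of 8 genes of the dissociation response none was 2-fold apart by sums, and 1 was at least 1 unit lower by the mean log level. That was Fos, an immediate early gene, with a mean log difference of −1.48 (adjusted p = 0.0524 by limma), and its sums, 3394 and 4484 CPM against 3863 and 6474 CPM, overlapped across plates and were lower in high-score cells within each plate. Egr1 had 490 and 662 CPM against 680 and 1130 CPM.

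Replication-dependent histone genes did not follow Slbp. Their mRNAs lack a poly(A) tail, and Smart-seq2 primes on poly(A), so these counts cover only the transcripts it can prime. Of 66 genes 41 had enough reads, and 2 were at least 2-fold higher and 2 (Hist2h2aa2 and Hist1h2ac) lower by sums. Each count is 4.88% of the 41, against 3.97% higher and 4.7% lower among all genes. By the mean log level 5 of the 41 were at least 1 unit higher, against 2.96% of all genes. By that measure 1 was lower, against 1.22% of all genes. Hist1h2ao had 373 and 224 CPM against 543 and 645 CPM and Hist1h2bc 1238 and 1115 CPM against 976 and 508 CPM, the latter with 456 and 462 CPM in the remaining cells and a mean log difference of 2.71 (adjusted p = 0.0464 by limma). The 2 higher genes by sums, Hist1h2bq and Hist1h2br, had nearly the same values, 12.1 and 67.8 CPM and 13.6 and 70.4 CPM, and reads of such near-identical genes may be divided between copies.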

How the data were processed

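Single eYFP-positive cells of P1 mouse sciatic nerve (743 wells, 2 plates) were sequenced by Smart-seq2. The deposited values are raw read counts per gene, which the authors made with STAR and featureCounts (STAR 2.6.1c and GRCm38.p5 per the labels). Use of strand in counting was not given in the sources used here. Cells, score and gene lists were chosen with earlier results of these data known.

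Cells of at least 1500 genes were kept, and reads were summed per plate and score group. Sums were tested outside the 14 rule genes with edgeR 4.0.16 (TMM, filterByExpr, quasi-likelihood test, Benjamini-Hochberg adjustment, threshold 0.05) in R 4.3.3. Alternatives were DESeq2 1.42.0, limma 3.58.1, RLE scaling, no filter, thinned cells, other cell, selection and score limits, and either plate left out. The limma fit on mean log2(CPM + 1), folds of 1.5 and 3, and sums without the top cell were added after seeing the data. The edgeR fits with and without a plate block, DESeq2 and limma on log2(CPM + 1) were run on simulated sums with known changes. Cell selection, scoring, the fold counts and the limma fit on mean log2(CPM + 1) were not simulated. P-values of the fits without a plate block measure the spread between the 2 plates within each score group. That spread holds differences between the pools of mice and between the cells that fell in each sum, and these were not separated. Same-numbered sums came from the same mice, so plates pair them, although their deviations correlated at only 0.013 over all genes and 0.069 over 3671 genes of at least 50 CPM.

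Genes were to be named as the 2 members of each list with the largest fold among those called, the 5 largest other genes, or, for lists without a call, the 2 members with the most reads. As edgeR called none, this gave the most read members, and 46 further genes were named after their values were seen. Exons of 41 of 108 named genes overlap another gene. Some withheld items are not reported here. Coordinates are GENCODE M21 on GRCm38. A ratio against no reads used a floor of 3 reads over the group, and limits from a count of 0 cover counting error only. Tables were made in Python 3.11.15 with pandas 2.3.3, numpy 2.4.6, scipy 1.17.1 and matplotlib 3.10.9.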

Additional observations from a re-analysis of the deposited data

How the results depend on the processing

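The count of replication genes at least 2-fold lower was 48 of 87 and lay between 32 and 52 under the other cell, score and fold settings, except for the score built from Ccnb1, Cdc20, Plk1, Mcm3, Mcm5 and Mcm6, which gave 30. Leaving out either replicate (setting the fold on 1 plate only) gave 49 to 56, but over all genes that step raised the higher genes from 439 to 1449 to 1515 and the lower genes from 520 to 1498 to 1775. The count of 23 mitosis genes at least 2-fold higher moved more: it was 36 between the upper and lower tercile of the score, 40 with the split at a score of 0, 39 at a fold of 1.5, 9 at a fold of 3, 53 by the mean log level and 30 to 46 on 1 plate only. It was 18 with the score of Ccnb1, Cdc20, Plk1, Mcm3, Mcm5 and Mcm6 and 22 with that of Cenpf, Aurka, Ccnb2, Pcna, Rrm2 and Cdc6. The remaining settings gave 25 to 33. The edgeR count of 0 called genes was also 0 with the plate as a replicate block, the fit that pairs sums of the same mice, and in 14 of 17 alternatives in all, but it was 228 with DESeq2, 40 without the low-count filter and 50 with limma on the mean log level, the last chosen after seeing the data. The cause of these differences was not tested. Over all genes, the 439 higher genes became 797 at a fold of 1.5 and 207 at a fold of 3, and the 520 lower genes 879 and 252. By the mean log level the lower genes numbered 135 and without the cell holding the most reads of each gene 296. The difference in median genes per cell was 157.5 to 367.5 when either replicate was left out.

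Of 1782 alternative fold changes of 94 named genes, 1605 stayed on the same side of zero and of the threshold, 95 passed the threshold only under the alternative and 82 changed sign, the last in 24 genes, while 70 genes never did. The values that changed sign (log2, high-score over low-score) were these. With the plate as a replicate block, the sign turned for Gmnn (−0.021), Pmp22 (0.0011) and Csf1r (−0.15). With DESeq2, the sign turned for Lin37 (0.0015) and Pmp22 (0.015). With RLE scaling, the sign turned for Lin37 (0.0015) and Pmp22 (0.015). Without the low-count filter, the sign turned for Rpl4 (−0.00084). With cells thinned to 50000 reads, the sign turned for Lin37 (0.14), Banf1 (0.15) and Rplp0 (−0.0041). With limma on log2(mean CPM + 1), the sign turned for Gmnn (−0.075), Csf1r (−0.15) and Rplp0 (−0.019). With cells of at least 1000 genes, the sign turned for Rpl4 (−0.014). With cells of at least 2500 genes, the sign turned for Lin37 (0.37), Banf1 (0.17), Erbb3 (0.048), Rplp0 (−0.032), mt-Cytb (0.068) and Timeless (−0.43). With a selection at 10 CPM, the sign turned for Banf1 (0.37), Pmp22 (0.056) and mt-Cytb (0.0063). With a selection at 200 CPM, the sign turned for Pmp22 (0.082). Between the upper and lower tercile of the score, the sign turned for Gmnn (−0.55), Banf1 (0.13), Cdk6 (0.031), Pmp22 (0.080), Fos (0.28) and Rpl4 (−0.035). With the split at a score of 0, the sign turned for Gmnn (−0.48), Usp1 (0.019), Banf1 (0.33), Erbb3 (0.34), Fos (0.29), Egr1 (0.27), Rplp0 (−0.0045), Rpl4 (−0.18) and mt-Cytb (0.11). With the score of Ccnb1, Cdc20, Plk1, Mcm3, Mcm5 and Mcm6, the sign turned for Gmnn (−0.19), Lin37 (0.16), Pmp22 (0.078), Fos (0.095), mt-Co1 (0.038) and Gap43 (−3.08). With the score of Cenpf, Aurka, Ccnb2, Pcna, Rrm2 and Cdc6, the sign turned for Gmnn (−0.088), Lin37 (0.19), Banf1 (0.041), Cdk6 (0.026), Erbb3 (0.17), Pmp22 (0.12), Fos (0.075), Rplp0 (−0.042) and Rpl4 (−0.22). With the score from thinned cells, the sign turned for Banf1 (0.21), Mal (−0.011) and Pmp22 (0.058). With limma on the mean log level, the sign turned for Asf1b (0.10), Cbx5 (0.46), Usp1 (0.098), Lin37 (0.010), Banf1 (0.52) and Cdk6 (0.41). Where leaving out either replicate turned the sign, the fold changes of the single plates ran from −0.68 to 0.61 for Gmnn, −1.39 to 0.073 for Rfc2, −0.51 to 0.10 for Dtymk, −0.90 to 0.37 for Asf1b, −0.65 to 0.33 for Cbx5, −0.0046 to 0.91 for Prc1, −0.15 to 0.27 for Smc2, −1.67 to 0.81 for Lin37, −0.44 to 0.059 for Banf1, −0.40 to 0.075 for Cdk6. They ran from −0.62 to 0.20 for Erbb3, −0.11 to 0.98 for Ncam1, −0.17 to 0.43 for Mal, −0.12 to 0.089 for Pmp22, −1.83 to 1.81 for Csf1r, −0.017 to 0.0085 for Rplp0, −0.11 to 0.096 for Rpl4 and −0.32 to 0.16 for mt-Cytb.

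With 2 plates an exact test cannot pass the threshold, and reads without molecular identifiers do not count molecules.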

Other observations

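Of the 122 wells set aside for reads from fewer than 1500 genes, 2 (1.64%) had at least 50 CPM of Mki67 and Top2a. These wells held few reads, with a median of 4669 in those 2 and 5684.5 in all 122, and were not used.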
